A study of Mus musculus with 20 samples.

Results

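Foxk1 and Foxk2 are paralogous mouse genes for forkhead transcription factors, and both were manipulated in this study of 3T3-L1 adipocytes. Their rows were chosen by gene identifier from a table of RNA abundance, which gave 2 of 48440 genes: Foxk1 (ENSMUSG00000056493.9, chromosome 5, 142401497 to 142462011 in mm10, plus strand) and Foxk2 (ENSMUSG00000039275.9, chromosome 11, 121259990 to 121309896, plus strand). Levels are in RPKM, reads on a gene scaled to the length of its exons and to the reads assigned to genes in the library, so levels of different genes are compared per length. RNA sequencing covered 20 libraries of 3T3-L1, a preadipocyte line from Swiss mice that is differentiated into fat cells in culture. All groups went through the same differentiation with dexamethasone, isobutyl methylxanthine, insulin and troglitazone.

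The libraries fell into 8 groups. In the Foxk1 set of 12 libraries, 3 carried an empty vector, 3 a construct labelled as overexpressing FOXK1, 3 a scrambled shRNA and 3 a Foxk1 shRNA. The Foxk2 set of 8 libraries held the 4 matching groups with 2 libraries each and with FOXK2 and Foxk2 in those places. Every manipulated group was compared with the control of its own kind and set. The labels give neither the species and extent of the coding sequence in the constructs nor the number of clones. Nothing in them shows that libraries of a group came from different cultures, so the p-values reflect only how these libraries vary, possibly for technical reasons. The table holds 1 value per gene, which does not separate reads of a construct from those of the cell's own gene. In bulk RNA, fewer expressing cells and less RNA per cell cannot be told apart.

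FOXK1 and FOXK2 share the forkhead domain, which binds DNA, and a forkhead-associated domain, which binds other proteins. They are known as partners of the Sin3 corepressor and of the BAP1 deubiquitinase, and they are known to bring Dishevelled proteins into the nucleus. Signalling through insulin, AKT, mTORC1 and GSK3 is known to control whether they lie in the nucleus or, bound to 14-3-3 proteins, in the cytoplasm. In muscle cells they are known repressors of autophagy genes, and in fat and muscle cells they are known to promote glycolysis.

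The paralogues are most alike in the forkhead domain. A stretch of 150 coding bases of that domain from each, across the junction of exons 4 and 5, is shown because it is the most similar window of that length in the transcripts, aligned without gaps, and bears on whether reads of the genes could be confused. The sequences are those of transcripts Foxk1-201 and Foxk2-201 in GENCODE M21, read 5′ to 3′, and capitals mark the bases at which they differ.
Foxk1: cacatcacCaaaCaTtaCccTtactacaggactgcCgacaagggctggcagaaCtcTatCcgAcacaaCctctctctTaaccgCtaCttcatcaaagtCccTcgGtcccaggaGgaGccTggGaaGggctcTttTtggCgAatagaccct
Foxk2: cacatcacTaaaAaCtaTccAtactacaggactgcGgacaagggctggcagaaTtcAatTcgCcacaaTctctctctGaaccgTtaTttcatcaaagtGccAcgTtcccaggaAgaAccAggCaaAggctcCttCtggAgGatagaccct
Of the 150 bases 124 were identical (82.7%), and 24 of the 26 differences lay at the third position of a codon. The same amino acid was encoded by 49 of the 50 codons.

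In the genome the Foxk1 window runs from 142450337 to 142451537 and the Foxk2 window from 121290840 to 121296127, with an intron inside each. Even here the longest identical run was 17 bases, and the longest exact run that the whole transcripts share was 23 bases, or 13 bases on opposite strands. Coding sequences aligned over 1829 bases with 70.9% identity. No other annotated gene matched either transcript at 99% identity or more over 100 bases or more, and 0 annotated genes overlapped either locus. The coding part is 2157 bases, 29.0% of the 7439 bases of Foxk1-201, and 1953 bases, 38.8% of the 5029 bases of Foxk2-201, so most of the length over which each gene was counted is noncoding.

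Both genes were expressed at moderate levels in every library. Reads assigned to genes numbered 16739763 to 20772823 per library in the Foxk1 set and 31378224 to 36157008 in the Foxk2 set. Of these, 375 to 3290 were on Foxk1 and 537 to 3461 on Foxk2. The SD between libraries of a group was below the counting error in 9 of 16 pairs of gene and group, so it can understate the error. For example, Foxk2 in the Foxk2 overexpression group had an SD of 0.179% of its mean, where counting alone gives 1.72%. All 12 adipocyte markers, among them Adipoq, Plin1 and Fabp4, were detected in every group, with a summed level of 9074 RPKM or more per library. The 5 endothelial markers summed to at most 0.382 RPKM in any library. The 6 macrophage markers summed to 1.76 to 3.80 RPKM; 2 of them were tested, of which 1 was called higher in the libraries labelled Foxk1 overexpression and 1 in Foxk2 knockdown. The 5 skeletal muscle markers summed to 0.346 to 4.19 RPKM, with the regulators Myod1 and Myog at 0 in every group, and the 1 tested was called lower in the libraries labelled Foxk1 overexpression (-0.67). Of all genes, 47.8% were called in the libraries labelled Foxk1 overexpression and 33.7% in Foxk2 knockdown, so calls among so few markers are not read further.

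Foxk2 was the more abundant paralogue per length in all 10 control libraries. Among empty vector controls, Foxk1 had 7.11, 7.48 and 8.04 RPKM in the Foxk1 set and 11.6 and 11.6 RPKM in the Foxk2 set. Among scrambled shRNA controls it had 8.80, 8.18 and 7.98 RPKM in the Foxk1 set and 10.7 and 9.79 RPKM in the Foxk2 set. The Foxk1 level was thus lower in every control of the Foxk1 set than in any control of the Foxk2 set. Foxk2 had 11.4, 11.5 and 10.9 RPKM in the empty vector controls of the Foxk1 set and 13.4 and 13.3 RPKM in those of the Foxk2 set. With scrambled shRNA, Foxk2 had 10.9, 10.8 and 11.3 RPKM in the Foxk1 set and 13.1 and 12.7 RPKM in the Foxk2 set. Foxk2, too, was lower in all controls of the Foxk1 set, with no overlap between sets. How many of all genes separate the sets in this way was not counted, so it is not read as particular to these genes. The sets differ in depth and replicate number as well, so levels are compared within a set.

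Differences between the control groups of a set did not pass the test for either gene. Relative to empty vector, scrambled shRNA shifted Foxk1 by 0.13 ± 0.055 in the Foxk1 set and by -0.17 ± 0.067 in the Foxk2 set, as log2 fold changes with SE (limma, Benjamini-Hochberg adjusted p = 0.0615 and 0.0916). The shifts of Foxk2 were -0.035 ± 0.040 and -0.046 ± 0.049 (adjusted p = 0.526 and 0.622). All of these were above the threshold of 0.05, which 44.8% and 18.9% of 15981 genes passed in the same contrasts. Ranges of the control groups overlapped in the Foxk1 set and were apart in the Foxk2 set. How many of all genes have control ranges apart was not counted. Where manipulated groups of the Foxk2 set met their controls, also 2 against 2, ranges were apart for 67.2% (shRNA) and 70.3% (overexpression) of genes. The separation of control ranges in that set is therefore not read further. The sign or the call of the control shifts, other than that of Foxk2 in the Foxk2 set, depends on the scaling or on single libraries, as detailed among the results on processing.

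**Figure D1:**
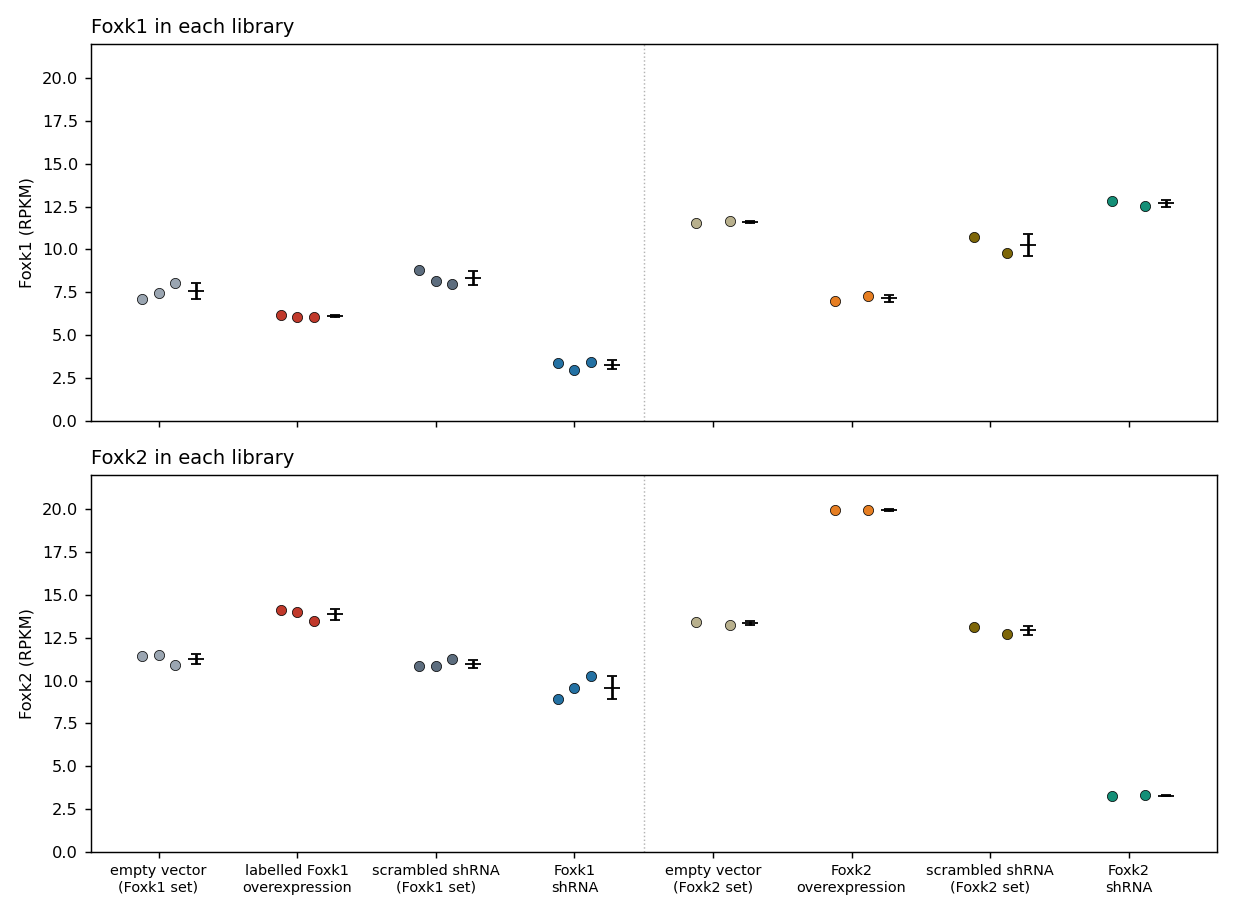
Foxk1 (top) and Foxk2 (bottom) in RPKM in each of 20 libraries; points are libraries, and bars give the mean and SD of each group. Foxk1 is lowest in Foxk1 shRNA (2.95 to 3.46 RPKM), Foxk2 is lowest in Foxk2 shRNA (3.25 to 3.29 RPKM), and the libraries labelled Foxk1 overexpression lie below their controls in Foxk1.

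Foxk1 shRNA lowered Foxk1 to well under its control level. The 3 Foxk1 knockdown libraries had 3.35, 2.95 and 3.46 RPKM of Foxk1, which were 40.3, 35.5 and 41.5% of the mean of the scrambled controls. All lay below every library of the other groups. Mean Foxk1 was 3.25 ± 0.265 RPKM in knockdown and 8.32 ± 0.424 RPKM in controls (SD, n = 3 and 3). On the log2(RPKM + 0.5) scale the fold change was -1.23 ± 0.055 (SE, 95% interval -1.35 to -1.12, limma adjusted p = 4.19e-10). Foxk1 was the target, yet 61 of 15981 genes fell further in these libraries, where 35.9% of genes passed the test (20.4% upward and 15.5% downward).

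In the same libraries Foxk2 fell slightly. Its levels were 8.90, 9.58 and 10.2 RPKM, or 81.0 to 93.2% of the control mean, and none reached the lowest control. The log2 fold change was -0.19 ± 0.040 (SE, n = 3 and 3, 95% interval -0.28 to -0.11, limma adjusted p = 0.00156). In a model of the 6 libraries alone the adjusted p was 0.0557. Ranges of knockdown and control were apart for both paralogues, as they were for 44.2% of genes.

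Foxk2 shRNA lowered Foxk2 in both libraries to well under its control level. The Foxk2 knockdown libraries had 3.25 and 3.29 RPKM, 25.2 and 25.5% of the control mean. Mean Foxk2 was 3.27 ± 0.0271 RPKM in knockdown and 12.9 ± 0.282 RPKM in controls (SD, n = 2 and 2). Its log2 fold change of -1.83 ± 0.049 (SE, 95% interval -1.94 to -1.73, limma adjusted p = 6.75e-12) had the smallest p of all genes tested. In this comparison 33.7% of genes passed (18.0% upward and 15.7% downward).

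Foxk1 rose in Foxk2 knockdown. Its levels were 12.8 and 12.6 RPKM, the highest of all 20 libraries, against 10.7 and 9.79 RPKM in the scrambled controls. The log2 fold change was 0.30 ± 0.067 (SE, n = 2 and 2, 95% interval 0.15 to 0.44, limma adjusted p = 0.00271). When a trend of each library on gene length and GC content was removed, the value was 0.096 (adjusted p = 0.180). Ranges were apart for both paralogues and for 67.2% of genes.

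The effects of the knockdowns on the paralogues differed from each other when tested in the same model. For each gene, this contrast sets the shRNA aimed at it against the shRNA aimed at its paralogue. A difference was therefore built into the design. The Foxk1 knockdown effect minus the Foxk2 knockdown effect was -1.53 ± 0.087 for Foxk1 (SE, limma adjusted p = 1.14e-07) and 1.64 ± 0.064 for Foxk2 (adjusted p = 1.47e-09), in a contrast that 14.3% of genes passed. In the values above, Foxk2 fell with Foxk1 in Foxk1 knockdown, while Foxk1 rose in Foxk2 knockdown. These changes of the paralogue not targeted were not tested against each other. Each lost its call in another setting. The former was -0.19 in the model of the groups compared alone (limma adjusted p = 0.0557), the latter 0.096 without the length and GC trend (limma adjusted p = 0.180). The knockdowns lie in sets of libraries that differ in depth and in control level, and the part of these in the differences was not tested.

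In the libraries labelled Foxk1 overexpression, Foxk1 was not higher than in its controls. The 3 libraries had 6.16, 6.06 and 6.08 RPKM of Foxk1, and the lowest empty vector control had 7.11 RPKM. Mean Foxk1 was 6.10 ± 0.0553 RPKM against 7.55 ± 0.468 RPKM (SD, n = 3 and 3). This is a log2 change of -0.28 ± 0.055 (SE, 95% interval -0.40 to -0.17, limma adjusted p = 0.000515). The target thus goes against its label in these values, and every direction for this group is that of the libraries as labelled. FOXK1 protein was not measured here.

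Foxk2 rose in the libraries labelled Foxk1 overexpression. Its levels were 14.1, 13.99 and 13.5 RPKM, above all 3 controls. The log2 fold change was 0.29 ± 0.040 (SE, n = 3 and 3, 95% interval 0.20 to 0.37, limma adjusted p = 2.68e-05). Of all genes 47.8% passed in this comparison (24.1% upward and 23.8% downward), and ranges were apart for 52.3% of genes as for both paralogues.

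The Foxk2 overexpression libraries showed a rise in their target. They had 19.93 and 19.98 RPKM of Foxk2, the highest of all libraries, against 13.4 and 13.3 RPKM in their controls. The ratio of the means was 1.49, and the log2 fold change was 0.56 ± 0.049 (SE, n = 2 and 2, 95% interval 0.46 to 0.67, limma adjusted p = 1.95e-07). In this comparison 45.0% of genes passed (23.0% upward and 22.0% downward).

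Foxk1 fell in Foxk2 overexpression, from 11.6 and 11.6 RPKM in the empty vector controls to 6.98 and 7.30 RPKM. The log2 fold change of -0.66 ± 0.067 (SE, n = 2 and 2, 95% interval -0.81 to -0.52, limma adjusted p = 8.96e-07) was of a size whose interval overlaps that of the rise of the target. That likeness of size depends on the processing: with the length and GC trend removed, Foxk1 changed by -0.45 and Foxk2 by 0.66. Ranges were apart for both paralogues and for 70.3% of genes. Foxk1 fell by more, and Foxk2 rose by more, than in the libraries labelled Foxk1 overexpression: the effect there minus the effect of Foxk2 overexpression was 0.38 ± 0.087 for Foxk1 (SE, limma adjusted p = 0.00481) and -0.28 ± 0.064 for Foxk2 (adjusted p = 0.00531). That contrast, which 25.1% of genes passed, also sets the manipulation labelled for each gene against that of its paralogue.

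**Figure D2:**
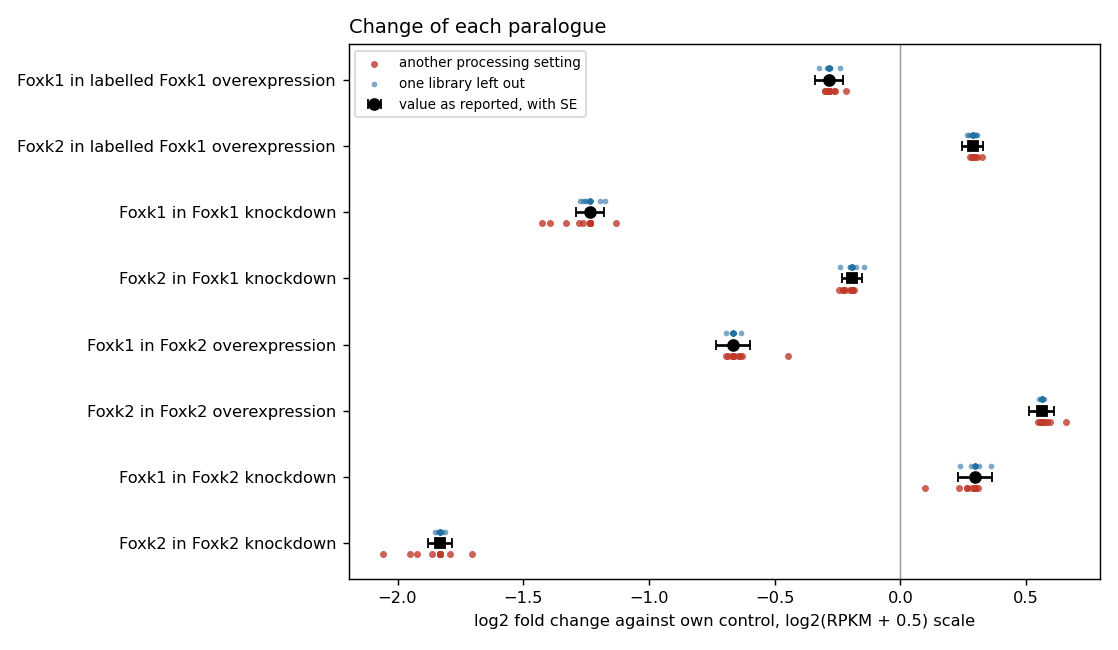
Log2 fold change of each paralogue against its own control on the log2(RPKM + 0.5) scale; black symbols with SE bars are the values reported, red points other processing settings and blue points fits with 1 library left out. All points keep their side of 0; the red point nearest to 0 is Foxk1 in Foxk2 knockdown without the length and GC trend (0.096).

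Over all 8 groups the order of levels also holds the difference between the sets described above, so it is given as values and not as an effect of any manipulation. Foxk1 was highest in Foxk2 knockdown (12.7 ± 0.201 RPKM, SD, n = 2), then in the empty vector and scrambled controls of the Foxk2 set. The scrambled and empty vector controls of the Foxk1 set and the Foxk2 overexpression group followed at means of 8.32, 7.55 and 7.14 RPKM, and each of these overlapped the next. The libraries labelled Foxk1 overexpression and those of Foxk1 knockdown stood last, apart from their neighbours. Foxk2 was highest in Foxk2 overexpression and next in the libraries labelled Foxk1 overexpression (13.9 ± 0.334 RPKM, SD, n = 3), ahead of both control groups of its own set. The only neighbours to overlap in the order of Foxk2 were the empty vector and scrambled controls of the Foxk1 set.

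The summed RPKM of both genes, an index of total Foxk transcript per length, was slightly higher in the comparisons labelled overexpression. In the libraries labelled Foxk1 overexpression the sum was 20.3, 20.1 and 19.6 RPKM, against 18.5, 18.9 and 19.0 RPKM in controls, a log2 change of 0.085. In Foxk2 overexpression it was 26.9 and 27.3 RPKM against 25.0 and 24.9 RPKM, a log2 change of 0.12. These small rises of the sum stood beside larger changes of its parts.

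In the knockdowns the sum fell. It was 12.3, 12.5 and 13.7 RPKM in Foxk1 knockdown against 19.7, 19.0 and 19.2 RPKM in controls, a log2 change of -0.59. Foxk2 knockdown gave sums of 16.1 and 15.9 RPKM against 23.8 and 22.5 RPKM, a log2 change of -0.54. Both knockdown groups lay below every other library. In the exact two-sided permutation test over libraries each of the 4 sums had the smallest p that its design allows, 0.1 with 3 against 3 and 0.33 with 2 against 2, so none could pass 0.05.

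Foxk1 made up 38.4 to 46.7% of the summed RPKM in the 10 control libraries. Its share was 30.2 to 31.1% in the libraries labelled Foxk1 overexpression, 25.9 and 26.7% in Foxk2 overexpression and 23.6 to 27.4% in Foxk1 knockdown. Only in Foxk2 knockdown was Foxk1 the more abundant paralogue, with 79.8 and 79.2% of the sum. The log2 ratio of Foxk1 to Foxk2 moved by -0.60 in the libraries labelled Foxk1 overexpression, -1.16 in Foxk1 knockdown, -1.28 in Foxk2 overexpression and 2.29 in Foxk2 knockdown. These changes also had the smallest exact permutation p of their designs (0.1, 0.1, 0.33 and 0.33, two-sided). The ratio therefore moved downward both where Foxk1 was silenced and in both comparisons labelled overexpression.

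**Figure D3:**
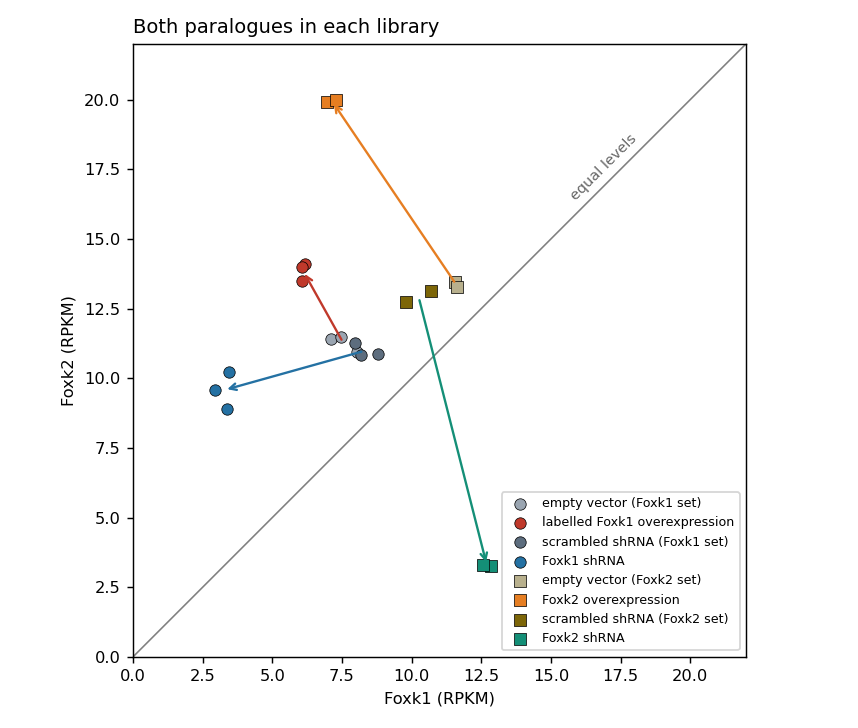
Foxk1 against Foxk2 in RPKM for each of 20 libraries (circles, Foxk1 set; squares, Foxk2 set), with arrows from the mean of each control group to that of its manipulated group and a line of equal levels. The arrows of both overexpression comparisons point up and left, and the Foxk2 knockdown libraries are alone below the line (Foxk1 79.2 to 79.8% of the sum).

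Among other forkhead genes, 42 were listed, 19 passed the filter on low values and 16 had a mean of 1 RPKM or more, while 11 were at 0 in every library. By mean level over all libraries Foxo4 came first (13.6 RPKM), followed by Foxk2 (11.8), Foxo3 (9.77), Foxj2 (9.17), Foxo1 (7.96), Foxk1 (7.95), Foxp4 (7.86), Foxc1 (6.70) and Foxf2 (6.52). This order pools both sets and all manipulations: Foxk1 had a mean of 6.31 RPKM over the Foxk1 set, where Foxp4, Foxf2 and Foxo1 were above it (6.94, 6.93 and 6.91), and of 10.4 RPKM over the Foxk2 set, where they were below it (9.24, 5.90 and 9.54). Levels of these genes vary between groups, and the ranges over the libraries from Foxk2 to Foxf2 in this order overlap. Foxn2, Foxn3, Foxo6, Foxd1, Foxj3, Foxs1, Foxc2, Foxp1 and Foxm1 had means from 5.76 down to 1.00 RPKM.

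Of the 19 tested, 5 rose and 9 fell in the libraries labelled Foxk1 overexpression (73.7%, against 47.8% of all genes), and 2 rose and 3 fell in Foxk1 knockdown (26.3% against 35.9%). In Foxk2 overexpression 4 rose and 7 fell (57.9% against 45.0%), and in Foxk2 knockdown 6 rose and 1 fell (36.8% against 33.7%). Foxo1, Foxo3 and Foxs1 were called in all 4 comparisons, and all of their calls and directions held under 3 other scalings. Foxo1 encodes an insulin-regulated activator of genes for fasting metabolism, Foxo3 a related activator of stress and atrophy genes, and Foxs1 a forkhead factor of perivascular cells.

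Foxo1 moved in the same direction as Foxk2 in each comparison. Its log2 fold changes were 0.33 ± 0.044 in the libraries labelled Foxk1 overexpression, -0.21 ± 0.044 in Foxk1 knockdown, 0.72 ± 0.053 in Foxk2 overexpression and -0.25 ± 0.053 in Foxk2 knockdown (SE). Foxo3 moved against Foxk2 throughout, by -0.44 ± 0.054, 0.26 ± 0.054, -0.68 ± 0.066 and 0.51 ± 0.066 in the same order. Foxs1, at a lower level, changed by -0.57 ± 0.12, 0.42 ± 0.12, -0.91 ± 0.14 and 1.13 ± 0.14. In Foxk2 overexpression Foxo1 rose from 7.89 ± 0.196 to 13.3 ± 0.0558 RPKM while Foxo3 fell from 14.1 ± 0.518 to 8.62 ± 0.0340 RPKM (SD, n = 2 and 2), so that their order by level turned round.

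**Figure D4:**
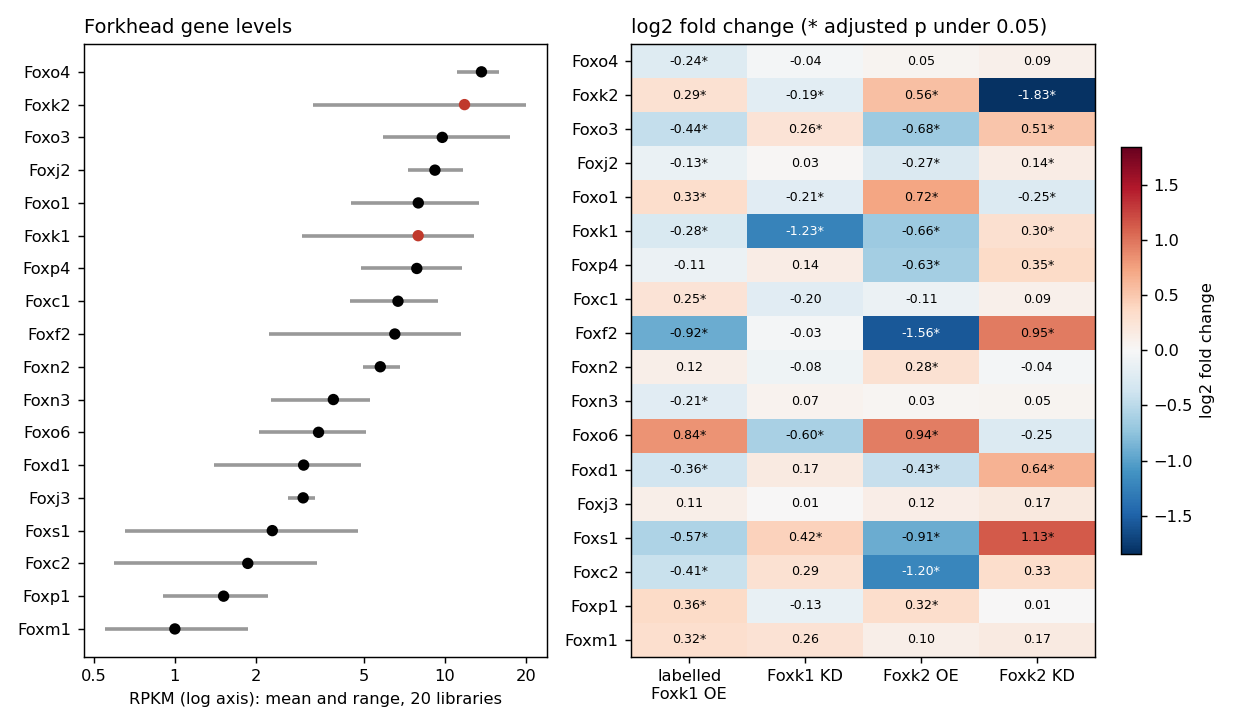
Left, mean and range over 20 libraries of forkhead genes whose mean was at least 1 RPKM (log axis, Foxk1 and Foxk2 in red); right, their log2 fold changes in the 4 comparisons, with asterisks for adjusted p under 0.05. Foxo1, Foxo3 and Foxs1 carry an asterisk in all 4 columns, and the Foxk2 knockdown of Foxk2 is the darkest cell (-1.83).

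Genes for known partners of the FOXK proteins are described by how many were called in each comparison, beside the shares of all genes given above. Of 17 Sin3 complex genes 4 rose and 1 fell in the libraries labelled Foxk1 overexpression, 3 rose and 1 fell in Foxk1 knockdown, 2 rose and 3 fell in Foxk2 overexpression, and 2 rose and 1 fell in Foxk2 knockdown (29.4, 23.5, 29.4 and 17.6% called, against 47.8, 35.9, 45.0 and 33.7% of all genes). Sap30, a Sin3-associated subunit, rose from 1.45 to 3.77 RPKM in the libraries labelled Foxk1 overexpression (log2 1.15 ± 0.14 SE, limma adjusted p = 4.66e-06). The deacetylase gene Hdac2 rose in both overexpression comparisons, by 0.21 ± 0.044 and 0.57 ± 0.054. Among 9 tested genes of the BAP1 complex 4, 3, 5 and 3 were called in the 4 comparisons (44.4, 33.3, 55.6 and 33.3%). The deubiquitinase gene Bap1 itself rose by 0.28 ± 0.041 in the libraries labelled Foxk1 overexpression and fell by 0.17 in Foxk1 knockdown. Ube2o, for a ubiquitin-conjugating enzyme, fell by 0.70 in Foxk2 overexpression and rose by 0.31 ± 0.063 in Foxk2 knockdown.

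The 3 Dishevelled genes had log2 fold changes between -0.15 (Dvl1 in Foxk1 knockdown) and 0.12 (Dvl1 in the libraries labelled Foxk1 overexpression) in the Foxk1 set, with limma adjusted p of 0.0865 or more. Dvl2 fell by 0.49 in Foxk2 overexpression and rose by 0.35 ± 0.044 in Foxk2 knockdown. Group means of Dvl2 were 39.5 to 45.9 RPKM in the Foxk1 set but 4.12 to 6.63 RPKM in the Foxk2 set. The source of that gap was not tested, so changes of Dvl2 are not compared between the sets. Dvl3 fell by 0.21 in Foxk2 overexpression, a call lost with median-ratio scaling (-0.19, adjusted p = 0.0598) and with the trend on length and GC content taken out (-0.0021, adjusted p = 0.983). The 6 tested genes of 14-3-3 proteins, which hold phosphorylated FOXK proteins in the cytoplasm, had small changes in both directions. Ywhab fell by 0.26 in the libraries labelled Foxk1 overexpression, by 0.28 in Foxk2 overexpression and by 0.20 in Foxk2 knockdown.

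Genes of the pathway that controls FOXK location changed in mixed directions. Of 15 genes for insulin receptors, their substrates, AKT, mTORC1 and GSK3, 5 rose and 4 fell in the libraries labelled Foxk1 overexpression, 4 rose and 5 fell in Foxk1 knockdown, 7 rose and 6 fell in Foxk2 overexpression, and 5 rose and 4 fell in Foxk2 knockdown. The shares called were 60, 60, 86.7 and 60%, against 47.8, 35.9, 45.0 and 33.7% of all genes. With the length and GC trend removed, the falls of Irs2, Akt1, Mlst8 and Tsc2 in Foxk2 overexpression did not pass. Their limma adjusted p were 0.0743, 0.224, 0.291 and 0.461. The rise of Tsc2 in Foxk2 knockdown did not pass there either (limma adjusted p = 0.339). Gsk3b, for a kinase that phosphorylates FOXK1, rose by 0.33 ± 0.038 in the libraries labelled Foxk1 overexpression and by 0.32 ± 0.046 in Foxk2 overexpression, and it fell by 0.27 in Foxk1 knockdown. The receptor gene Igf1r rose in both knockdowns, by 0.54 ± 0.063 with Foxk1 shRNA and 0.59 ± 0.077 with Foxk2 shRNA. Irs1, the insulin receptor substrate, fell by 0.58 in the libraries labelled Foxk1 overexpression and rose by 0.43 ± 0.068 in Foxk2 knockdown.

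Among known targets, 29 autophagy genes had 7 rises and 10 falls in the libraries labelled Foxk1 overexpression, 3 and 8 in Foxk1 knockdown, 8 and 10 in Foxk2 overexpression, and 2 and 9 in Foxk2 knockdown. The shares called were 58.6, 37.9, 62.1 and 37.9%, against 47.8, 35.9, 45.0 and 33.7% of all genes, so those in the knockdowns were near the share of all genes. Wipi1, which binds the forming autophagosome, fell by 0.89 and 0.80 in the comparisons labelled Foxk1 and Foxk2 overexpression and rose by 0.54 ± 0.051 and 0.68 ± 0.063 in the Foxk1 and Foxk2 knockdowns. Gabarapl1, for a protein of the autophagosome membrane, fell by 0.78 and 0.62 in the overexpression comparisons. Most autophagy genes called in the knockdowns went the other way from Wipi1. Sqstm1 changed by -0.32 ± 0.031 in Foxk1 knockdown, and Map1lc3b by -0.16 ± 0.038 in Foxk2 knockdown. Atg3 changed by -0.23 ± 0.038 in Foxk1 knockdown and by -0.33 ± 0.047 in Foxk2 knockdown. The glycolysis list, like the others, was chosen with earlier results of these data known. Of its 16 tested genes, 13 rose and 2 fell in the libraries labelled Foxk1 overexpression, and 2 and 13 in Foxk1 knockdown. In Foxk2 overexpression 14 rose and 2 fell, and in Foxk2 knockdown 3 and 9. The shares called were 93.8, 93.8, 100 and 75.0% in that order. Hk2, the insulin-responsive hexokinase, rose by 1.04 ± 0.053 and 1.25 ± 0.065 in the overexpression comparisons and fell by 0.69 in Foxk2 knockdown.

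Fibroblast and preadipocyte markers, such as collagen genes and Pdgfra, moved with the manipulations. Of 11 tested, 10 fell and 1 did not pass in each comparison labelled overexpression, and 11 rose in each knockdown. The shares called were 90.9% in each overexpression comparison, against 47.8 and 45.0% of all genes, and 100% in each knockdown, against 35.9 and 33.7%. Of 5 tested myofibroblast markers, 1 rose and 4 fell in the libraries labelled Foxk1 overexpression, 3 rose and 1 fell in Foxk1 knockdown, 1 rose and 2 fell in Foxk2 overexpression, and 4 rose and 1 fell in Foxk2 knockdown. The sum of the fibroblast and preadipocyte markers per library was 1092 to 1286 RPKM in the empty vector controls of the Foxk1 set and 561 to 587 RPKM in the libraries labelled Foxk1 overexpression, and 1798 to 1945 RPKM in scrambled controls and 3104 to 3257 RPKM in Foxk1 knockdown. In the Foxk2 set it was 1042 to 1067 RPKM in empty vector controls, 536 to 548 RPKM in Foxk2 overexpression, 691 to 693 RPKM in scrambled controls and 1703 to 1760 RPKM in Foxk2 knockdown. Adipocyte markers numbered 12, of which 1 rose and 9 fell in the libraries labelled Foxk1 overexpression, 8 fell in Foxk1 knockdown, 2 rose and 8 fell in Foxk2 overexpression, and 1 rose and 4 fell in Foxk2 knockdown (83.3, 66.7, 83.3 and 41.7% called). The part of these shifts in the levels of Foxk1 and Foxk2 was not tested.

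Along the chromosome, the nearest tested genes were Gna12, 1571065 bases before Foxk1, and Ap5z1, 1932 bases after it, and, for Foxk2, Narf, 4133 bases before it, and Wdr45b, 17327 bases after it. Of 20 tested neighbours, 5 per side of each gene, 14 were called in the libraries labelled Foxk1 overexpression (70%, against 47.8% of all genes), 5 in Foxk1 knockdown (25% against 35.9%), 12 in Foxk2 overexpression (60% against 45.0%) and 8 in Foxk2 knockdown (40% against 33.7%). Narf, which encodes a protein that binds prelamin A, changed in the same direction as Foxk2 in each comparison, by 0.19 ± 0.053, -0.52 ± 0.053, 0.48 ± 0.065 and -0.45 ± 0.065. Foxk2 itself changed by 0.29, -0.19, 0.56 and -1.83 in that order. Ap5z1, for a subunit of an adaptor complex of late endosomes, changed by -0.17 ± 0.065, 0.13 ± 0.065, -0.33 ± 0.079 and 0.15 ± 0.079, and its knockdown values did not pass. The calls of Ap5z1 were lost once trends on length and GC content were taken out (adjusted p = 0.108 and 0.401).

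Likeness of pattern was measured as Pearson's r over 20 libraries of log2(RPKM + 0.5) minus the mean of the own control group. It was taken among 9202 tested genes whose mean was at least 2 RPKM, leaving out those with a predicted or clone name. The libraries share groups and controls, so r is a description. For Foxk1 the highest were Nudt18 (0.947), Olfm2 (0.944), Lfng (0.935), Apoa4 (0.932) and Fads3 (0.926), and among the lowest were Emc2 (-0.933), Sec24d (-0.915), Orm3 (-0.914) and Etv6 (-0.901). For Foxk2 the highest were Fam91a1 (0.988), Cox7b (0.958), Ermp1 (0.950), Pfkfb3 (0.949) and Acadvl (0.945), and among the lowest were Sik1 (-0.974), Mapk8ip3 (-0.967), Emilin1 (-0.960) and Gli2 (-0.960). Neither list held the paralogue, for which r was -0.339. Fam91a1, which encodes a protein of trafficking to the Golgi, had log2 fold changes of -0.76 in Foxk2 knockdown and 0.34 in Foxk2 overexpression. Pfkfb3 encodes the enzyme that makes fructose 2,6-bisphosphate, an activator of glycolysis, and had log2 fold changes of -0.51 and 0.31 there.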

How the data were processed

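The authors deposited 1 table of RPKM values that covers 48440 genes and 20 libraries. Per the submitters' processing notes, the tools were HISAT2 2.1.0, Picard 1.141, featureCounts of Subread 1.5.1 and edgeR, with the build mm10. The strand of the libraries is not given in the sources used here. Symbols, coordinates and exon lengths came from GENCODE M21 (48058 identifiers matched without version). RPKM multiplied by merged exon length (7584 bases for Foxk1, 5258 for Foxk2) gave whole reads, within 0.1 read, for 100% of values above 0 of the 40606 identifiers matching with version, and depth is the total so recovered.

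Values were log2(RPKM + 0.5), which understates changes of low genes. Genes reaching an RPKM of 0.5 in 2 libraries or more (15981) entered limma 3.58.1 (R 4.3.3) with 8 group means, a prior variance that follows the mean and 12 residual degrees of freedom, two-sided, with Benjamini-Hochberg adjustment over all genes tested and a threshold of 0.05. Sums and ratios of RPKM had no pseudocount and an exact permutation test over libraries. The script was tested on simulated data. Sequences came from GENCODE M21 transcripts through Biopython 1.88 and BLAST+ 2.17.0; figures were drawn with matplotlib 3.10.9 and pandas 2.3.3 in Python 3.11.15.

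No pair of libraries was identical. Same-numbered replicates did not deviate together (r of -0.0858 to 0.0331), so the numbers were not treated as pairs. Genes named are both paralogues, forkhead genes whose mean is at least 1 RPKM, up to 3 members of smallest p per list and comparison, the nearest neighbours and the genes most like each paralogue; only some are printed, and some genes that this rule names are not reported here. The members and lists were chosen with earlier results of these data known. Alternatives were 2 filters, 2 pseudocounts, 2 scalings, removal of a length and GC trend, a replicate block, voom on reads recovered from RPKM, a robust prior, 2 smaller models and each library left out.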

Additional observations from a re-analysis of the deposited data

Results flagged for a closer look

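For both genes, the effects of the Foxk1 and Foxk2 manipulations differed by a test of the difference itself (limma, 3 against 3 libraries in the Foxk1 set and 2 against 2 in the Foxk2 set). Each contrast sets the manipulation aimed at a gene against that aimed at its paralogue. A difference between the knockdowns was therefore built into the design. For Foxk1 the knockdown difference, Foxk1 minus Foxk2, was -1.53 ± 0.087 on the log2 scale (SE, adjusted p = 1.14e-07), with a fall in 3 of 3 Foxk1 knockdown libraries and a rise in 2 of 2 Foxk2 knockdown libraries. For Foxk2 it was 1.64 ± 0.064 (adjusted p = 1.47e-09), with Foxk2 lower than control in all libraries of both knockdowns and by more in that of Foxk2. Between the comparisons labelled overexpression the difference was 0.38 ± 0.087 for Foxk1 (adjusted p = 0.00481), which was lower than control in all libraries of both, and -0.28 ± 0.064 for Foxk2 (adjusted p = 0.00531), which was higher than control in all libraries of both. The comparisons share no library but lie in sets of different depth (16739763 to 20772823 and 31378224 to 36157008 reads).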

How the results depend on the processing

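Of 988 combinations of a result with an alternative, 972 kept the direction and the side of the threshold (counts: stayed within 1.5 times), and no change of a paralogue against its own control turned its sign in any of them. Part of the 988 could not change. Sums and ratios, with an exact permutation p of 0.1 or 0.33 in every setting, could not cross the threshold. Leaving out a library outside a comparison leaves its fold change as it was. With a model of the groups compared alone, Foxk2 in Foxk1 knockdown did not pass (-0.19, adjusted p = 0.0557). With the length and GC trend removed, Foxk1 in Foxk2 knockdown did not pass (0.096, adjusted p = 0.180), the difference of scrambled and empty vector controls of the Foxk1 set turned sign for Foxk1 (-0.0077, adjusted p = 0.906) and passed for Foxk2 (-0.12, adjusted p = 0.0402), and calls summed over the 4 comparisons were 27 for the Sin3 complex (17 as reported) and 6 for Dishevelled genes (3 as reported). With median-ratio scaling the control difference of Foxk2 in the Foxk1 set (-0.12, adjusted p = 0.0328) and of Foxk1 in the Foxk2 set (-0.20, adjusted p = 0.0479) passed. A model of 1 set alone gave 5 calls of Dishevelled genes. Voom gave 9 calls for 14-3-3 genes (14 as reported) and 33 for glycolysis (58 as reported); it tested only genes whose identifier version matched the annotation. The cause of these shifts, those with voom included, was not tested.

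With a library left out in turn, the control difference of Foxk1 in the Foxk1 set ranged from 0.094 to 0.18; it passed without the third empty vector control (0.18, adjusted p = 0.0235), the third scrambled control (0.16, adjusted p = 0.0487) or the second Foxk1 knockdown library (0.13, adjusted p = 0.0330). Calls of Dishevelled genes ranged from 2 to 5 and were 5 without either of those controls. Leaving out a library of the Foxk2 set leaves 1 in its group, which is then assumed to vary like the others. A replicate block changed no call of either paralogue (Foxk1 in Foxk2 knockdown 0.30, adjusted p = 0.00555), and counts of called genes, in all and per list, stayed within 1.5 times of those reported. A model of 1 set alone cannot be made for differences between sets. Among called genes, the share that rose in Foxk1 knockdown was 56.9% as deposited and 46.8, 47.9 and 43.5% with median-ratio scaling, quantile normalization and the length and GC trend removed; in Foxk2 knockdown it was 53.5%, then 45.6, 45.3 and 40.8%. No call of the gene lists turned sign under these 3 settings, and 6 of 37 calls of other forkhead genes did not pass under at least 1 of them. The counting errors given cover sequencing reads only, and the intervals of fold changes cover only the spread between these libraries.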
